A study of Mus musculus with 18 samples.

Results

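The Fc gamma receptors of the mouse were followed through the neutrophil lineage, from the granulocyte-monocyte progenitor (GMP) through the pre-neutrophil (preNeu) to the mature neutrophil (matNeu). The set was fixed by gene symbol and held 6 of the 34896 gene rows of the expression table: Fcgr1, Fcgr3, Fcgr4, Fcgr2b, Fcer1g and Fcgrt. Each symbol had 1 row, and all 6 passed the filter on low values. Fc gamma receptors bind the constant part of IgG and let leukocytes take up and kill what antibodies have coated. The activating receptors encoded by Fcgr1, Fcgr3 and Fcgr4 signal through the common gamma chain encoded by Fcer1g, whose tyrosine motif is phosphorylated by Src family kinases and then bound by SYK. The receptor encoded by Fcgr2b carries an inhibitory motif that recruits the phosphatase SHIP-1, and Fcgrt encodes FcRn, which pairs with beta-2 microglobulin and returns internalised IgG to the outside of the cell.

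The cells came from bone marrow of C57BL/6 mice of 6 to 12 weeks. RNA-seq covered wild type GMP, preNeu and matNeu with 3 libraries each, and ChIP-seq or ATAC-seq covered each condition with 1 library: CHD4, the remodelling ATPase of the NuRD complex, in wild type (WT) and Gfi1-/- (Gfi1KO) GMPs, dimethylated histone H3 lysine 4 (H3K4me2) in wild type GMP, preNeu and matNeu, and open chromatin in wild type preNeu and matNeu. GFI1 is a transcriptional repressor of myeloid progenitors, and the Gfi1-/- label gives no cell type for the deletion. The GMPs were sorted as lineage-negative cKIT+ SCA1- CD16/32+ CD34+ cells, and CD16/32 are the products of Fcgr3 and Fcgr2b. The level of these genes in GMPs was therefore in part chosen by the gate. The preNeu and matNeu were sorted from Mac-1+ Gr-1+ cells, by cKIT and CXCR4 and by CXCR2 respectively, with no antibody against an Fc receptor among these. Nothing in the labels says that the 3 libraries of a cell type came from separate mice, so that p-values measure the spread between libraries, which may be technical.

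For 13 of the 18 samples, among them all 9 RNA-seq libraries and the H3K4me2 libraries of preNeu and matNeu, the cell type in the title differed from the one in a second label, and the title was followed. The marker genes were high where the titles placed them: the summed TPM (a transcript's share of a library's reads, corrected for its length) of 7 GMP markers ranged over 45281 to 47164 in libraries titled GMP, 8322 to 9362 in those titled preNeu and 10.1 to 33.2 in those titled matNeu, and that of 6 matNeu markers over 588 to 713, 1025 to 1198 and 29415 to 33039. Across the 13061 genes that reached 1 TPM in 3 libraries or more and were tested, libraries of 1 cell type correlated at 0.960 to 0.971 and libraries of different cell types at 0.809 or less. The 2 ATAC lists, titled preNeu and matNeu, were identical in each of their 16307 peaks and were counted as 1 list. Read depth could not be recovered from TPM, and the peak lists give no read totals.

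On chromosome 1 lie 4 of the members (build GRCm38, GENCODE M21): Fcgr2b at chr1:170958617-170976547 on the minus strand, Fcgr4 at chr1:171018920-171029761 on the plus strand, Fcgr3 at chr1:171051174-171064935 on the minus strand and Fcer1g at chr1:171229572-171234365 on the minus strand. Fcgr1 is at chr3:96282909-96293969 and Fcgrt at chr7:45092990-45103851, both on the minus strand. The start used for each gene was that of the first transcript named for it in the annotation, which for Fcgr3 lies inside the annotated gene, at 171059403. The 60 bases before it were read from GRCm38 in the direction of transcription, since CHD4 lay on 5 of these 6 starts and members that are activating receptors can be compared with the others there. Capitals mark the cores searched for: GAGGAA of SPI1 (PU.1), AAATCA of GFI1, AANNGAAA of the IRF family, TTGCNNAA of the C/EBP family and TGTGGT of the RUNX family, each on both strands.
Fcgr1, chr3:96293970-96294029: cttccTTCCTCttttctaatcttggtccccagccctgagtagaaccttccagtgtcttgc
Fcgr3, chr1:171059404-171059463: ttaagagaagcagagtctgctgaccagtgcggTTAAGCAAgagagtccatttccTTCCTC
Fcgr4, chr1:171018860-171018919: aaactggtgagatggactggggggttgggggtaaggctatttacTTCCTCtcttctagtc
Fcgr2b, chr1:170976128-170976187: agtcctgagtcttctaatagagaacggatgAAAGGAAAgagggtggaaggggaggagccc
Fcer1g, chr1:171234366-171234425: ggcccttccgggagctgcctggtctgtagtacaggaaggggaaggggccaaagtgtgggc
Fcgrt, chr7:45103852-45103911: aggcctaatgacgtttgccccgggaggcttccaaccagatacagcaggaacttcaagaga
The SPI1 core stood, in the TTCCTC orientation, in the windows of the 3 activating receptors, with its first base 55 bases before the start in Fcgr1, 6 in Fcgr3 and 16 in Fcgr4. The Fcgr3 window held a C/EBP core as well, from 28 to 21 bases before the start, and the Fcgr2b window an IRF core. None of the 5 cores was found in the windows of Fcer1g and Fcgrt. The longer promoter windows of RefSeq (300 bases on GRCm38.p6, 250 before and 50 after the start) contain these 60 bases. The SPI1 cores of Fcgr1, Fcgr3 and Fcgr4 are therefore in them too, with no further one, and 28.3% of all 32851 promoters held this core. No such share was computed for windows of 60 bases. In the 300 bases the GFI1 core stood at Fcgr2b, and 14.0% of all promoters held it. A RUNX core stood at Fcer1g and Fcgr4 (16.8% of all promoters), and an IRF core at Fcgr4 and Fcgr2b (23.9%). A C/EBP core stood at Fcgrt and Fcgr3 (10.8%). The match of a core is a description of letters and not of binding.

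The most abundant activating receptor was Fcgr3, the low-affinity receptor for IgG complexes. In GMPs its TPM was 788, 534 and 667, in preNeu 492, 477 and 429, and in matNeu 2895, 3477 and 2795. The 3 cell types did not overlap, with matNeu highest and preNeu lowest. Fcgr3 was the gene of rank 178 by mean TPM in GMPs, 240 in preNeu and 39 in matNeu. From preNeu to matNeu it rose 6.56-fold in mean TPM (log2 change of TPM + 1 of 2.71, SE 0.15, adjusted p = 6.83e-08, limma), and from GMP to matNeu by 2.21 (SE 0.15, adjusted p = 1.48e-07, limma). Between GMP and preNeu it fell by 0.49 on the log2 scale (SE 0.15, adjusted p = 0.0148, limma), close to the median of all genes, -0.52. The call of that fall was lost without the first GMP library (-0.36, adjusted p = 0.0609, limma) and under 3 other scalings, and with libraries centred on their medians the value was 0.14.

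**Figure D1:**
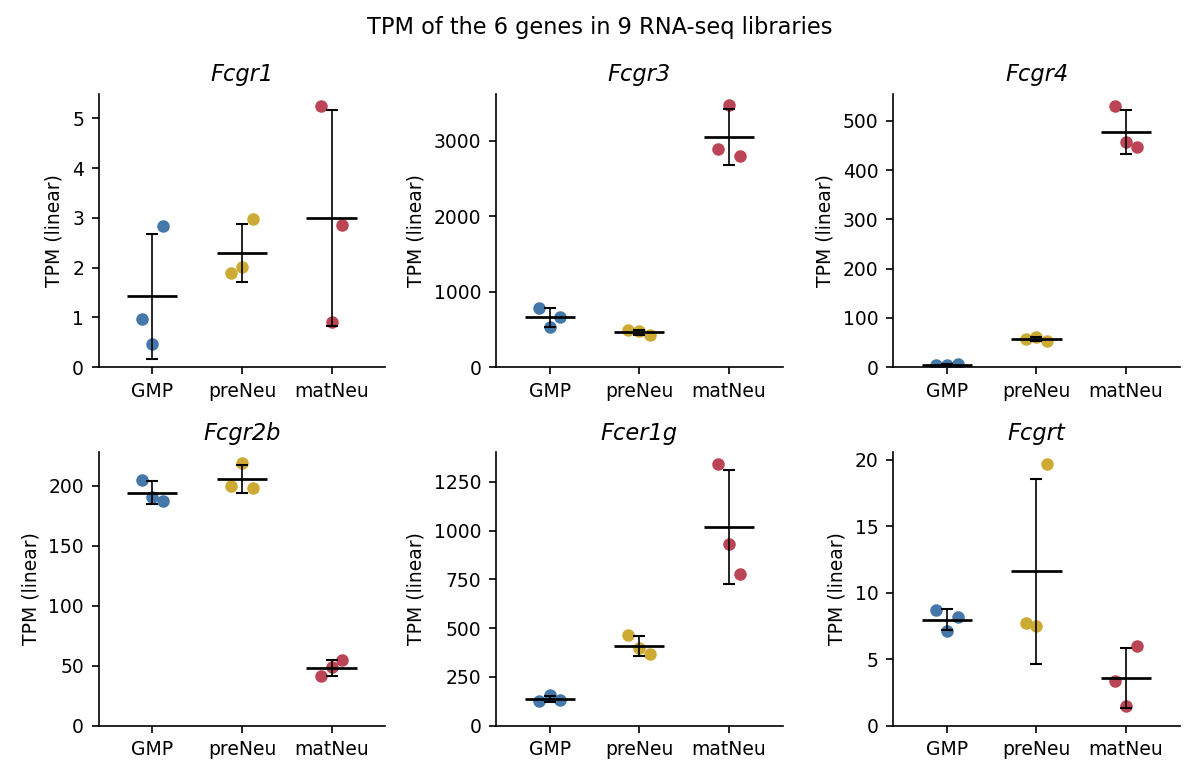
TPM on linear axes that differ between panels, for each of the 6 genes in the 3 libraries of GMP, preNeu and matNeu (points), with the mean (line) and SD (bars). Fcgr4 and Fcer1g were higher at each stage, Fcgr3 was highest in matNeu with 2795 to 3477 TPM, and Fcgr2b was lowest in matNeu with 41.5 to 54.8 TPM.

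Fcgr4, the activating receptor that binds IgG2 subclasses and is known from neutrophils and monocytes, changed most. Its TPM was 3.68, 4.39 and 6.14 in GMPs, 57.0, 62.0 and 53.9 in preNeu, and 529, 457 and 446 in matNeu. Each step separated the libraries without overlap. The mean was 12.2-fold higher in preNeu than in GMPs, 8.28-fold higher in matNeu than in preNeu and 101-fold higher in matNeu than in GMPs. On the log2 scale these rises were 3.37, 3.03 and 6.40 (SE 0.17 each), with adjusted p of 1.5e-07, 9.19e-08 and 3.24e-10 (limma). The rise from GMP to matNeu lay at the 99.2nd percentile of the 13061 genes tested. Over the 19 alternatives tried it ranged from 6.27 to 7.80 and kept its call in each.

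Fcgr1, the high-affinity receptor best known from monocytes and macrophages, was near the limit of the table. It had 0.96, 0.47 and 2.84 TPM in GMPs, 1.90, 2.01 and 2.97 in preNeu, and 5.25, 0.91 and 2.86 in matNeu. The libraries of each pair of cell types overlapped. Its log2 changes were 0.55 from GMP to preNeu, 0.14 from preNeu to matNeu and 0.69 from GMP to matNeu (SE 0.47 each), with adjusted p of 0.337, 0.822 and 0.201 (limma). Each value was smaller than 2 SE, so that a change of this size was not detectable here. The value from GMP to matNeu passed the threshold with libraries centred on their medians (2.08, adjusted p = 0.00162), with quantile normalization (1.73, adjusted p = 0.00733) and without the second matNeu library (1.14, adjusted p = 0.0383, limma each), and that from GMP to preNeu with centring (1.18, adjusted p = 0.0482, limma).

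The inhibitory receptor fell at the last step, where Fcgr3 and Fcgr4 rose and Fcgr1 was not called. Fcgr2b had 205, 190 and 187 TPM in GMPs and 200, 219 and 198 in preNeu, which overlapped, and 41.5, 48.8 and 54.8 in matNeu, below each of the others. The mean was 4.25-fold lower in matNeu than in preNeu. On the log2 scale Fcgr2b fell by 2.07 from preNeu to matNeu (SE 0.13, adjusted p = 1.65e-07, limma) and by 1.99 from GMP to matNeu (SE 0.13, adjusted p = 1.07e-07, limma). Between GMP and preNeu the log2 change was 0.08 (SE 0.13, adjusted p = 0.611, limma), against the median of -0.52. It was called higher in preNeu under the 3 other scalings: 0.71 with centring, 0.45 with quantile normalization and 0.42 with rescaled TPM (adjusted p = 0.0012, 0.00902 and 0.0132, limma). The rescaling left out of each library's total every gene that was among the 10 most abundant of any library. B cells also express Fcgr2b. The summed TPM of 6 B cell markers was 79.4 to 94.8 in GMPs, of which Cd79b made up 77.9 to 93.7 while Pax5 was at 0, 26.8 to 48.0 in preNeu, and 65.3 to 140 in matNeu, where Cd79a reached 16.2 to 33.1 and all 6 averaged at least 1 TPM, as they did in preNeu. The part of B cells in the Fcgr2b level of the matNeu libraries was not tested. In sorted populations, a change in the mix of cells and a change in RNA per cell cannot be told apart.

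Fcer1g, the signalling chain that the activating receptors need at the cell surface, rose at both steps. Its TPM was 125, 156 and 133 in GMPs, 466, 397 and 366 in preNeu and 1343, 933 and 778 in matNeu, with no overlap. It rose by 1.56 on the log2 scale from GMP to preNeu (SE 0.19, adjusted p = 4.96e-05, limma), by 1.28 from preNeu to matNeu (adjusted p = 0.000136, limma) and by 2.84 from GMP to matNeu (adjusted p = 1.40e-07, limma). The mean was 2.97-fold, 2.48-fold and 7.36-fold higher. Fcer1g also serves the high-affinity IgE receptor of mast cells and basophils. The summed TPM of 6 basophil and mast cell markers lay between 565 and 722 in GMPs, between 313 and 496 in preNeu and between 2.54 and 15.1 in matNeu, so that it was lowest where Fcer1g was highest. The summed TPM of 8 monocyte and macrophage markers was also lower at each later stage, with 4344 to 5169 in GMPs, 1702 to 2228 in preNeu and, at the last stage, 1150 to 1502 in matNeu. Ly6c2 made up most of that sum, with a mean of 2962 TPM in GMPs, 1866 in preNeu and 937 in matNeu. The macrophage markers Csf1r (204, 13.8 and 304 TPM) and Adgre1 (12.3, 11.4 and 83.8 TPM) were highest in matNeu. The part of basophils, mast cells, monocytes or macrophages in the Fc receptor levels was not tested.

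Fcgrt, which encodes FcRn, was low throughout. It had 8.67, 7.10 and 8.20 TPM in GMPs, 7.72, 7.48 and 19.7 in preNeu and 3.34, 1.45 and 6.00 in matNeu. The third preNeu library stood apart from the other two, and matNeu lay below both other cell types without overlap. The log2 change was 0.36 from GMP to preNeu (SE 0.43, adjusted p = 0.498, limma). Fcgrt fell by 1.45 from preNeu to matNeu (SE 0.43, adjusted p = 0.0126, limma) and by 1.09 from GMP to matNeu (adjusted p = 0.0383, limma), the latter close to the median of -0.92. The call from preNeu to matNeu was lost without the third preNeu library (-1.03, adjusted p = 0.0520) or the second matNeu library (-1.06, adjusted p = 0.0507), and with centring (-0.69, adjusted p = 0.155) or quantile normalization (-0.74, adjusted p = 0.168, limma each). The one from GMP to matNeu was lost without any of the 3 GMP libraries or the first or second matNeu library (adjusted p = 0.0633 to 0.152, limma), with a value of -0.70 without the second matNeu library, and it was 0.30 with centring and 0.28 with quantile normalization. Its light chain B2m, which it shares with class I MHC, had a mean TPM of 1477 ± 296 in GMPs, 1274 ± 157 in preNeu and 2431 ± 368 in matNeu (SD, n = 3), and rose from preNeu to matNeu (log2 change 0.93, SE 0.16, adjusted p = 0.000531, limma).

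By level per transcript, the order in GMPs was Fcgr3, Fcgr2b, Fcer1g, Fcgrt, Fcgr4 and Fcgr1, and no neighbours in that order overlapped. The order in preNeu was Fcgr3, Fcer1g, Fcgr2b, Fcgr4, Fcgrt and Fcgr1, in which the libraries of Fcgr3 and Fcer1g overlapped. In matNeu it was Fcgr3, Fcer1g, Fcgr4, Fcgr2b, Fcgrt and Fcgr1, in which those of Fcgrt and Fcgr1 overlapped.

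From GMP to preNeu, 2 of the 6 members were called higher, where 14.7% of all genes tested were, and 1 lower, where 44.3% were. From preNeu to matNeu 3 members were called higher against 22.9% of all genes and 2 lower against 39.8%, and from GMP to matNeu 3 higher against 22.8% and 2 lower against 54.1%. The median log2 change of the 6 was 0.46, 0.71 and 1.45, beside -0.52, -0.32 and -0.92 over all genes tested. TPM are shares of a fixed total, and the most abundant genes differed between cell types, so that the split of the calls depended on the scaling. Higher calls were 25.0% of all calls from GMP to preNeu. They were 54.7% with centring, 48.1% with quantile normalization and 37.4% without the 10 most abundant genes of any library. For preNeu to matNeu the shares were 36.5%, then 63.0%, 50.3% and 30.3%, and for GMP to matNeu 29.6%, then 59.7%, 50.2% and 31.1%. For the members, GMP to preNeu gave 4 higher and 0 lower with centring and 3 higher and 0 lower with each of the other 2 scalings. For preNeu to matNeu it was 3 higher and 1 lower with centring and with quantile normalization. Without the 10 most abundant genes of any library it was 3 and 2. For GMP to matNeu the 3 scalings gave 4 and 1, 4 and 1, and 3 and 1 in that order. Relative to the median of all genes, the changes from GMP to matNeu were 7.32 for Fcgr4, 3.76 for Fcer1g, 3.14 for Fcgr3, 1.61 for Fcgr1, -0.17 for Fcgrt and -1.07 for Fcgr2b on the log2 scale. The direction and the call of Fcgr4 and Fcer1g at both steps, and of Fcgr3 and Fcgr2b from preNeu to matNeu and from GMP to matNeu, held under each of the 19 alternatives. Their sizes moved. The fall of Fcgr2b ranged from -2.32 to -1.31 from preNeu to matNeu and from -2.08 to -0.60 from GMP to matNeu, the smaller values with centring. The rise of Fcgr3 ranged from 2.12 to 3.47 and from 1.80 to 3.61 in these comparisons, with the lowest values under quantile normalization. The rise of Fcer1g ranged from 1.47 to 2.19 from GMP to preNeu and from 0.69 to 2.04 from preNeu to matNeu, and that of Fcgr4 from 3.24 to 4.06 and from 2.74 to 3.79.

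**Figure D2:**
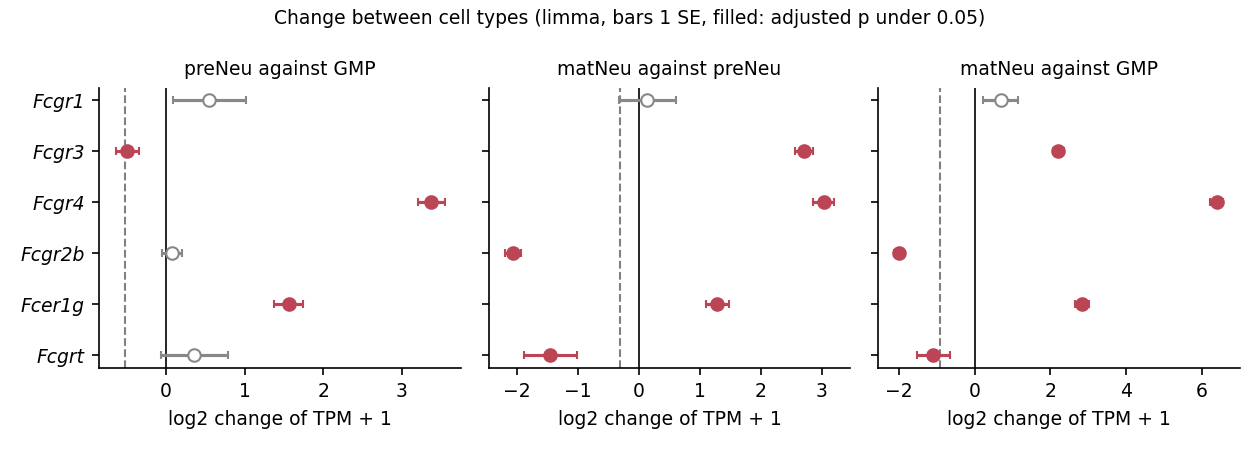
Log2 change of TPM + 1 for each gene (horizontal axis) in the 3 comparisons, as points with bars of 1 SE; filled points have an adjusted p under 0.05 (limma), and the dashed line is the median of all 13061 genes tested. Fcgr4 has the largest rise of the 6 in each panel, 6.40 from GMP to matNeu, and Fcgr2b falls by 2.07 from preNeu to matNeu.

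A factor common to all genes of a library leaves the ratios within it as they are. Quantile normalization is no such factor, and the ratios were not recomputed under it, where the log2 change from preNeu to matNeu was 2.12 for Fcgr3 and -1.93 for Fcgr2b in place of 2.71 and -2.07. Among the 4 receptors that bind IgG at the cell surface (Fcgr1, Fcgr3, Fcgr4 and Fcgr2b), the summed TPM was 863 ± 134 in GMPs, 732 ± 42 in preNeu and 3584 ± 356 in matNeu (SD, n = 3). Fcgr3 made up 76.5% ± 3.0 of it in GMPs, 63.7% ± 1.6 in preNeu and 85.1% ± 2.0 in matNeu. The share of Fcgr4 was 0.56% ± 0.17, 7.88% ± 0.28 and 13.4% ± 1.9, and that of Fcgr2b 22.8% ± 2.9, 28.1% ± 1.3 and 1.36% ± 0.26 (SD, n = 3 each). Fcgr1 was at most 0.43% in each library.

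The 3 activating receptors together had 3.87, 2.83 and 3.61 times the TPM of Fcgr2b in the GMP libraries, 2.76, 2.47 and 2.46 times in preNeu, and 82.6, 80.6 and 59.2 times in matNeu. The matNeu libraries lay above all others, and the preNeu libraries below the GMP ones. The ratio of Fcgr4 to Fcgr2b was 0.025 ± 0.008 in GMPs, 0.280 ± 0.007 in preNeu and 10.1 ± 2.4 in matNeu (SD, n = 3), so that Fcgr4 passed Fcgr2b in matNeu and not before. The ratio of the signalling chain to the receptors was highest in preNeu: Fcer1g had 0.158, 0.290 and 0.197 times the TPM of the activating receptors in GMPs, 0.846, 0.734 and 0.754 times in preNeu, and 0.392, 0.237 and 0.240 times in matNeu. The libraries of GMP and matNeu overlapped. Of the 31-base stretches of the Fcgr3 transcripts 13.4% also occurred in Fcgr2b transcripts, so that reads in the shared part could be divided between both. Of the 5609 stretches of Fcgr2b, 457 (8.15%) occurred in another gene, 233 of them in Fcgr3. Fcgr4 shared 1.39%, none of it with another member, and Fcgr1 and Fcer1g shared none.

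**Figure D3:**
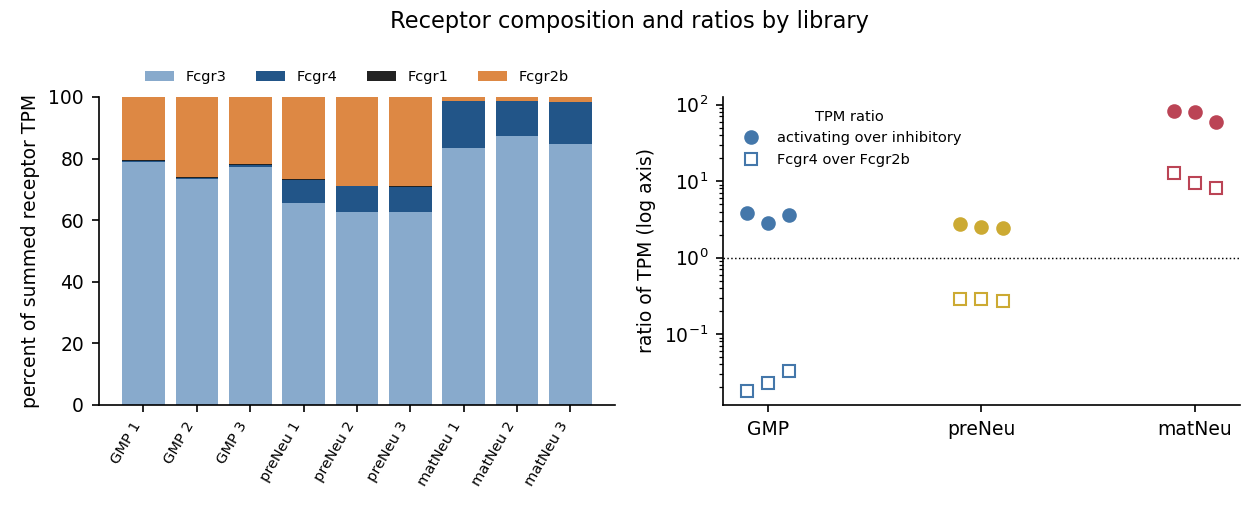
Left, the share of Fcgr3, Fcgr4, Fcgr1 and Fcgr2b in their summed TPM for each of the 9 libraries, in percent. Right, on a log axis, the TPM ratio of the activating receptors to Fcgr2b (filled circles) and of Fcgr4 to Fcgr2b (open squares) by library, which rises above 1 (dotted line) for Fcgr4 in matNeu only.

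The partners of the receptors were taken from a list of 57 genes of Fc receptor signalling, of which 49 were tested. From GMP to preNeu 21 were called higher and 12 lower, from preNeu to matNeu 30 and 6, and from GMP to matNeu 34 and 9, where 14.7% and 44.3%, 22.9% and 39.8%, and 22.8% and 54.1% of all genes were. This split also moved with the scaling. From GMP to preNeu it was 32 and 6 with centring, 29 and 6 with quantile normalization and 28 and 8 without the 10 most abundant genes of any library. From preNeu to matNeu it was 39 and 2, 26 and 6, and 27 and 8 in that order, and from GMP to matNeu 42 and 5, 37 and 7, and 34 and 8. The median log2 change of the list was 0.34, 0.83 and 1.25, beside the medians of -0.52, -0.32 and -0.92 over all genes. Among the Src family kinases, which phosphorylate the gamma chain, 3 of 4 tested were higher in preNeu than in GMPs and 1 was lower. Fgr had 0.93, 0.85 and 0.64 TPM in GMPs, 216, 254 and 258 in preNeu and 779, 829 and 801 in matNeu, a rise of 8.80 on the log2 scale from GMP to matNeu (SE 0.13, adjusted p = 1.39e-11, limma). Lyn had a mean of 70.4 ± 5.4 TPM in GMPs, 151 ± 34 in preNeu and 404 ± 48 in matNeu (SD, n = 3). It rose at each step, by 1.06 and 1.44 on the log2 scale (adjusted p = 0.000306 and 2.31e-05, limma).

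Syk, the kinase that binds the phosphorylated gamma chain, had a mean of 48.5 ± 8.8 TPM in GMPs, 92.9 ± 11.7 in preNeu and 296 ± 60 in matNeu (SD, n = 3) and rose by 0.93 and 1.65 on the log2 scale (adjusted p = 0.0012 and 1.45e-05, limma). The second signalling chain of myeloid cells, encoded by Tyrobp, had 235 ± 40, 584 ± 69 and 3325 ± 1081 TPM and rose by 1.31 and 2.47 (adjusted p = 0.00036 and 2.15e-06, limma). Of the 7 negative regulators in the list, 3 were higher and 2 lower in matNeu than in preNeu, beside 22.9% and 39.8% of all genes tested. Their median log2 change was -0.11, beside -0.32 over all genes. Both phosphatases named below were among the higher, while Fcgr2b fell. Inpp5d, which encodes SHIP-1, had 110 ± 10, 105 ± 45 and 291 ± 6 TPM and rose by 1.55 from preNeu to matNeu (SE 0.23, adjusted p = 0.000158, limma). Ptpn6, which encodes SHP-1, had 390 ± 14, 748 ± 59 and 1297 ± 110 TPM and rose by 0.94 and 0.79 (adjusted p = 2.76e-05 and 5.51e-05, limma).

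The largest rises of the list from GMP to matNeu were those of Clec4d (8.89), Fgr (8.80) and Pira2 (7.89) on the log2 scale (adjusted p = 6.48e-10, 1.39e-11 and 1.14e-08, limma). Clec4d, a C-type lectin of myeloid cells, and Pira2, a paired immunoglobulin-like receptor, both signal through the gamma chain. The 4 tested receptors of this kind were all higher in matNeu than in preNeu, where 22.9% of all genes tested were. Clec4d had 0.99 to 2.91 TPM in preNeu and 1946 to 2104 in matNeu. The largest falls were those of Ms4a2 (-6.39), the beta chain of the IgE receptor, of Plcg1 (-3.31), a phospholipase, and of Lat2 (-3.19), an adaptor. Ms4a2 had 109 to 129.96 TPM in GMPs and 0.11 to 0.79 in matNeu. Of the 7 tested among 13 other Fc receptor or related genes, 5 were higher and 2 lower in matNeu than in GMPs. Among all genes tested 22.8% were higher and 54.1% lower. The part of B cells in these values was not tested.

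By Pearson correlation of log2(TPM + 1) over the 9 libraries, among 10131 genes whose cell type means spanned at least 1, the genes most like Fcgr2b were Oip5, Hmgb3 and Cdca5 (r = 0.999, 0.998 and 0.998). Oip5 and Cdca5 act in chromosome segregation, and Cdca5 had a mean of 123 TPM in GMPs, 130 in preNeu and 0.55 in matNeu. Nearest to Fcgr4 were Lilrb4a, R3hdm4 and Dok3 (r = 0.997 each), of which Lilrb4a is an inhibitory receptor. Nearest to Fcer1g were Cd52, Scrg1 and Lst1 (r = 0.993, 0.988 and 0.987), and near to Fcgr3 were Syf2 and Rara (r = 0.994 and 0.993). For Fcgrt they were Ormdl1, Zfp11 and Trappc11 (r = 0.937, 0.935 and 0.932). For Fcgr1, whose own means spanned 0.69, they were Hist1h2bb, Tg and Mylpf (r = 0.839, 0.806 and 0.804). The 9 points are 3 clusters of 3, so that r mostly compares 3 means.

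In WT GMPs, 23 CHD4 peaks lay within 10 kb of a member: 9 at Fcgr2b, 4 at Fcgr1, 4 at Fcer1g, 3 at Fcgr3, 3 at Fcgr4 and none at Fcgrt. Thus 5 of 6 members had a peak, where 32.4% of the 21951 protein-coding genes had one. At each of these 5 genes a CHD4 peak covered the start of transcription, with a fold enrichment of 16.5 at Fcgr1, 9.78 at Fcgr3, 8.62 at Fcgr2b, 7.44 at Fcgr4 and 4.29 at Fcer1g. The median was 7.72 over all 35790 WT peaks. The 32.4% is for a peak anywhere within 10 kb, and no share of all genes with a covered start was computed. By the position of the summit 12 of the 23 were intergenic, 8 intronic and 3 exonic, the last being the peaks on the starts of Fcgr3, Fcgr2b and Fcer1g. These positions were not counted over all WT peaks.

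The strongest peaks lay away from the starts. At Fcgr1 it had a fold enrichment of 25.0 with its summit 6.87 kb upstream, and at Fcgr2b one of 20.8 with its summit 9.15 kb upstream. The second of Fcgr2b, of 15.5, lay downstream of the gene, 20.3 kb from the start. The 100 bases around both upstream summits are given on the strand of the gene, because the first was still called in Gfi1KO GMPs and the second was not. Capitals mark the same cores as above.
Fcgr1, chr3:96300789-96300888: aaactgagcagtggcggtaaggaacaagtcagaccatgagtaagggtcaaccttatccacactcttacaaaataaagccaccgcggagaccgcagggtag
Fcgr2b, chr1:170985228-170985327: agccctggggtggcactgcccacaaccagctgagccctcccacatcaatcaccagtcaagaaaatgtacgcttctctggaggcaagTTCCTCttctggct
In these 100 bases the window of Fcgr1 held none of the 5 cores, and that of Fcgr2b held 1 SPI1 core. In the 200 bases around the same summits, Fcgr1 had 2 IRF cores and Fcgr2b 1 SPI1 core.

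In Gfi1KO GMPs, CHD4 peaks lay at 2 of the 6 members, Fcgr1 and Fcgr2b, where 10.2% of protein-coding genes had one. Of the 23 WT peaks 3 were overlapped by a Gfi1KO peak, 13% (95% Wilson interval 4.54 to 32.1%, for counting error only), and 18.5% of all WT peaks were. The 3 were those on the start of Fcgr1 and 6.87 kb upstream of it, and 1 in an intron of Fcgr2b, 8.39 kb from its start. Their fold enrichment was 16.5, 25.0 and 10.99 in WT and 4.81, 6.84 and 5.27 in Gfi1KO. At Fcgr3, Fcgr4 and Fcer1g no CHD4 peak was called in Gfi1KO GMPs. Across the genome the share kept went with the fold enrichment in WT. Among the 3579 strongest WT peaks, which hold the upstream peak of Fcgr1, 92.9% were kept, and among the next 3579, which hold the peak on the start of Fcgr1 and both lost peaks of Fcgr2b named above, 49.9%. The peaks on the starts of Fcgr3, Fcgr4, Fcgr2b and Fcer1g lay in bins of 3579 peaks of which 8.63%, 2.21%, 4.22% and 3.91% were kept, and the kept intronic peak of Fcgr2b lay in the bin of 8.63%. The Gfi1KO list held 7316 peaks against 35790, each from 1 library of unknown depth, so that a loss of CHD4 and a less sensitive library cannot be told apart. Gfi1KO GMPs have no RNA-seq here, and whether the lost peaks go with a change in Fc receptor RNA was not tested.

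**Figure D4:**
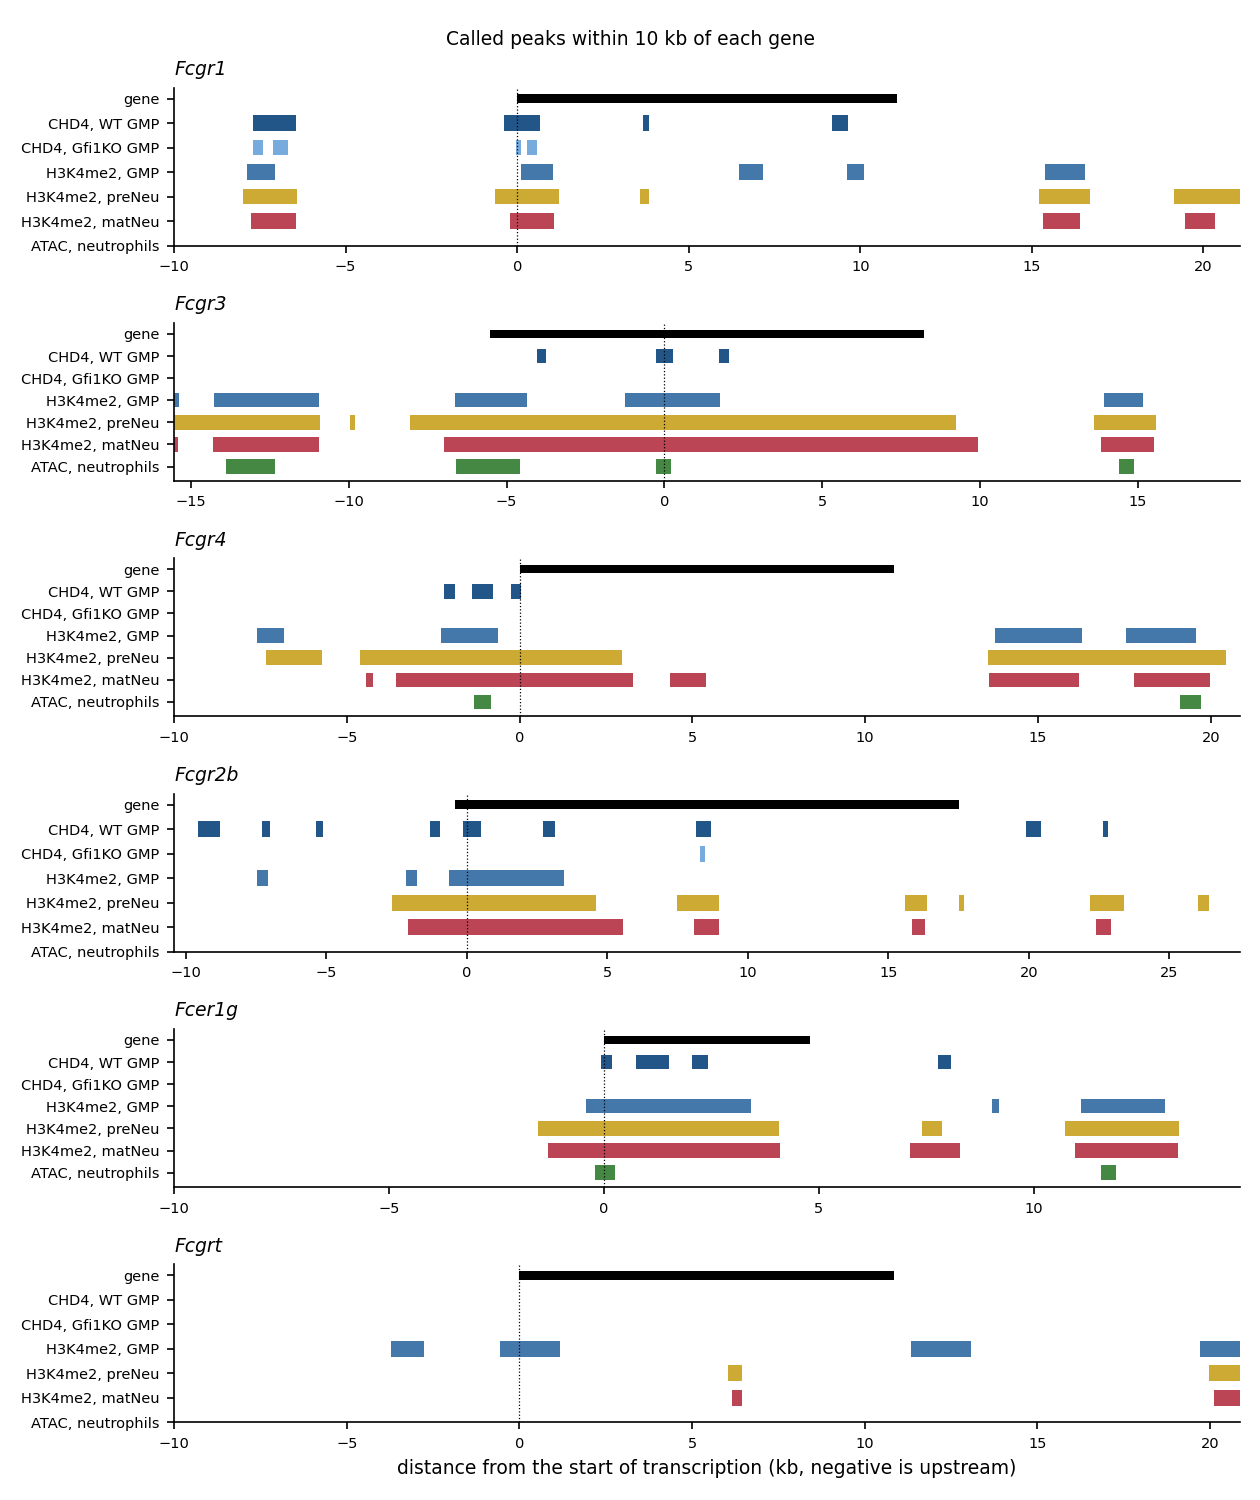
Called peaks within 10 kb of each gene (horizontal axis, distance from the start of transcription in kb, negative upstream), in rows for CHD4 of WT and Gfi1KO GMPs, H3K4me2 of GMP, preNeu and matNeu, and ATAC-seq of neutrophils; the black bar is the gene. CHD4 peaks of Gfi1KO GMPs remain at Fcgr1 and inside Fcgr2b, the H3K4me2 domain over the start of Fcgr3 is wider in preNeu and matNeu than in GMPs and the one over the start of Fcgr4 is called in preNeu and matNeu and not in GMPs, and Fcgrt has no CHD4 or ATAC peak.

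In the 200 bases around the 23 summits, the SPI1 core was found at 11 (47.8%), beside 46.1% of all CHD4 summits in WT GMPs. The IRF core was found at 8 (34.8%, beside 35.1%), the C/EBP core at 5 (21.7%, beside 17.3%), the RUNX core at 4 (17.4%, beside 23.9%) and the GFI1 core at 1 (4.35%, beside 12.0%), a summit 7.16 kb upstream of Fcgr2b. No 2 of these cores overlapped at a member's summit. With 23 summits, these shares could not be set apart from those of all summits.

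H3K4me2, a mark of active and primed promoters and enhancers, covered a longer part of the windows of 5 members, and a shorter part of that of Fcgrt, in preNeu than in GMPs, in lists that differed in how much was called. At Fcgr3 the peak over the start was 3030 bp wide with a fold enrichment of 3.08 in GMPs, 17279 bp with 8.32 in preNeu, where it ran over the whole gene, and 16937 bp with 7.47 in matNeu. At Fcgr4 no GMP peak covered the start, the nearest being 1658 bp wide with a fold enrichment of 2.46, while in preNeu a peak of 7562 bp with 10.6 and in matNeu one of 6866 bp with 9.20 covered it. At Fcer1g the widths were 3847, 5598 and 5381 bp with fold enrichments of 3.97, 15.6 and 10.5. At Fcgr2b they were 4095, 7284 and 7661 bp with 3.04, 12.96 and 5.85, so that in matNeu, where the RNA was lowest, the domain was as wide as in preNeu with a lower enrichment. At Fcgrt a peak of 1749 bp over the start was called in GMPs with a fold enrichment of 2.56 and a −log10 q-value of 1.56, and none in preNeu or matNeu.

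Over the gene and 10 kb on either side, H3K4me2 peaks covered 29.7% of the Fcgr3 window in GMPs, 71.1% in preNeu and 65.5% in matNeu. For Fcgr4 the shares were 22.7%, 52.1% and 41.8%, for Fcgr2b 12.9%, 30.0% and 25.2%, for Fcer1g 24%, 35.2% and 36.1%, for Fcgr1 13.3%, 23% and 14.7%, and for Fcgrt 18.2%, 4.21% and 3.41%. In GMPs, peaks of 2167 and 1728 bp that lay in or reached into the Fcgrt window were centred on exons of its neighbour Rcn3. The covered length was longer in preNeu than in GMPs at 5 of 6 members, where it was at 63.4% of protein-coding genes, and shorter at 1, Fcgrt, where it was at 13.6%. From preNeu to matNeu it was longer at 1, Fcer1g, beside 11.4%, and shorter at 5, beside 63.3%. Some of these directions turned with the settings. Among peaks with a −log10 q-value of 5 or more, the share at Fcgrt was 0% in GMPs, 4.21% in preNeu and 2.45% in matNeu, so that it was no longer shorter in preNeu. The covered length at Fcer1g, 8723 bp in preNeu and 8942 bp in matNeu, was 8248 and 7763 bp with that threshold or with lists of equal peak number, and 5598 and 5381 bp within 2 kb. Within 2 kb it was longer in matNeu than in preNeu at Fcgr3 (16766 and 16937 bp) and at Fcgr4 (4955 and 6303 bp). Over all protein-coding genes the covered share was 4.23% in GMPs, 7.52% in preNeu and 6.25% in matNeu. The lists themselves covered 49.8, 97.9 and 80.4 Mb with a median fold enrichment of 2.89, 4.55 and 3.78, so that they differed in how much was called, each with 1 library.

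**Figure D5:**
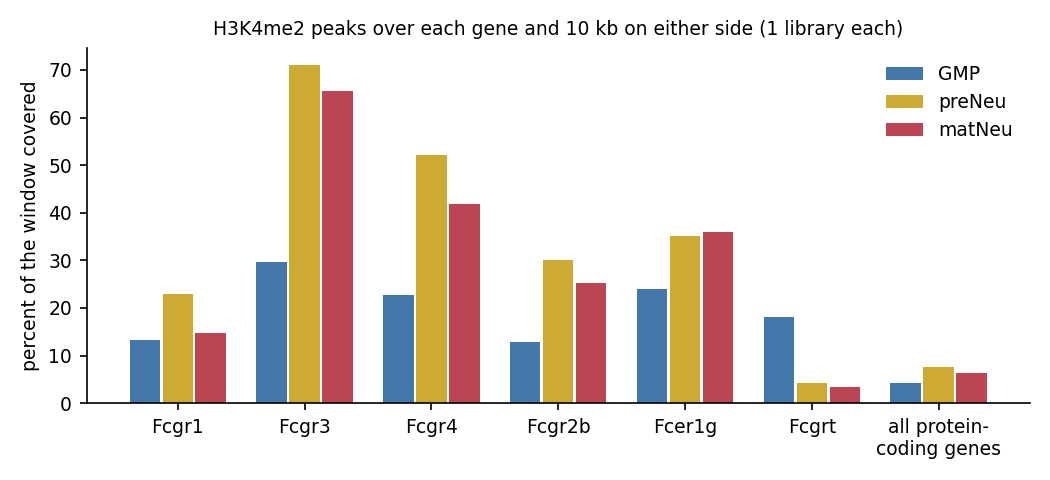
Percent of the window (each gene and 10 kb on either side) covered by H3K4me2 peaks in GMP, preNeu and matNeu (bars, 1 library each), for the 6 genes and for all 21951 protein-coding genes. The share at Fcgr3 goes from 29.7% in GMPs to 71.1% in preNeu, and that at Fcgrt from 18.2% to 4.21%, where peaks with a −log10 q-value of 5 or more give 0% and 4.21%.

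ATAC peaks of neutrophils lay within 10 kb of 3 of the 6 members, Fcgr3, Fcgr4 and Fcer1g, where 52.9% of protein-coding genes had one. They covered the starts of Fcgr3 and Fcer1g, and at Fcgr4 one lay 1.08 kb upstream. Of the 23 CHD4 peaks of WT GMPs 3 overlapped an ATAC peak of neutrophils, and 13, 18 and 17 overlapped an H3K4me2 peak of GMP, preNeu and matNeu. These overlaps were not counted over all CHD4 peaks, so that they show nothing particular to the members. The H3K4me2 lists also differed in how much they covered.

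Protein-coding neighbours lay within 10 kb of Fcer1g and Fcgrt. Next to Fcer1g, Tomm40l had a mean of 77 TPM in GMPs, 14.1 in preNeu and 1.87 in matNeu, so that it went from high to low while Fcer1g went from low to high. Nr1i3 and Apoa2 had a mean of at most 2.16 TPM in each cell type. Rcn3, next to Fcgrt, had 6.16, 1.69 and 0.76 TPM. Antisense genes overlap Fcgr2b and Fcgrt (Gm38204 and Gm45669). The libraries were stranded, but no source used here says that the counting used the strand, so that the values of Fcgr2b and Fcgrt may include reads of these.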

How the data were processed

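The authors deposited a table of TPM per gene for 9 RNA-seq libraries and 1 peak list per ChIP-seq or ATAC-seq library, with the fold enrichment (a ratio to the control) and −log10 q-value of each peak as deposited. The submitters' processing notes name FastQC 0.11.5, MultiQC 1.6, Trimmomatic 0.36, BWA 0.7.17, MACS2 2.1.0 and kallisto 0.44.0, while the protocol names TopHat, HTSeq and DESeq; which of them gave the TPM is not given in the sources used here. No column of another series was in the table. The lists of CHD4, H3K4me2 and ATAC-seq lie within the chromosome ends of GRCm38; those of GFI1 and H3K4me3 in GMPs name chromosomes that the mouse lacks (1534 and 1330 peaks) and were not used. Other peak lists were not analysed here.

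TPM were tested on log2(TPM + 1) in limma 3.58.1 (R 4.3.3) with 1 fit over the 3 cell types, eBayes with trend and Benjamini-Hochberg adjustment over the 13061 genes that reached 1 TPM in 3 libraries or more, at 0.05. On this scale the change of low genes is understated. The script was tested on simulated data. Peaks were assigned within 10 kb of the GENCODE M21 gene body, and peaks were shared from 1 bp of overlap. Sequences came from the RefSeq genome of GRCm38 (samtools 1.23.1, Python 3.11.15) and the RefSeq promoter table, in which all 6 members matched. The genes named are the 6 members, signalling partners (Syk, Fgr, Lyn, Inpp5d, Ptpn6, Tyrobp, B2m), the 3 largest rises and falls of the signalling list from GMP to matNeu, the 3 genes most correlated with each member and the protein-coding neighbours; a few genes that meet this rule are not reported here. The B cell markers Cd79a, Cd79b and Pax5 and the monocyte and macrophage markers Ly6c2, Csf1r and Adgre1 were named after their values were seen. The same holds for the basophil and mast cell marker Prss34. The members and lists were chosen with earlier results of these data known.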

Additional observations from a re-analysis of the deposited data

How the results depend on the processing

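For the 6 members, 311 of 339 values under an alternative kept their direction and their side of the threshold. Without a change of sign, 15 lost the call and 7 gained it. A further 6 changed sign, among them values of Fcgr3 and Fcgrt that also lost a call. With libraries centred on their medians, the values that changed sign were those of Fcgr3 (0.14), Inpp5d (0.48), B2m (0.43) and Clec4d (0.15) from GMP to preNeu and of Fcgrt (0.30) from GMP to matNeu. With quantile normalization they were Inpp5d (0.27), Clec4d (0.12) and Fcgrt (0.28), in the same comparisons. With TPM rescaled without the 10 most abundant genes of any library they were Inpp5d (0.18) and B2m (0.13) from GMP to preNeu. From preNeu to matNeu it was Fcgr1 (-0.046). Leaving out 1 library at a time, Fcgrt from GMP to preNeu ranged from -0.060 to 0.58, Inpp5d from -0.48 to 0.041, and Fcgr1 from preNeu to matNeu from -0.26 to 0.59; the changes of sign came without the third preNeu, second preNeu and first matNeu library. None of the values with a changed sign passed the threshold (limma), while Inpp5d passed it at -0.48 without the third preNeu library (adjusted p = 0.00874, limma). The cause was not tested. The number of members and of signalling genes called, both directions together, stayed within 1.5 times under each alternative run, while their split moved with the scaling. With as many WT peaks by q-value as the Gfi1KO list holds, 2 of the 4 CHD4 peaks left at the members were kept, 50%, beside 72.5% of all. Requiring a −log10 q-value of 5 or more left an H3K4me2 share of 6.94% at the members in GMPs, where 30567 of 37643 peaks lay below that value. In 100 bases around the summit, the GFI1 core was at 0% and the C/EBP core at 8.70% of the member summits. With stretches of 50 bases, the shared sequence of Fcgr4 and Fcgrt was 0%. The log2 ratios between members moved by less than their SD with a pseudocount of 1. They were also taken without each library in turn. Leaving out 1 library cannot move the mean of its cell type by as much as the SD, so that nothing follows from this. The replicate numbers did not pair the libraries: of 9 pairs with the same number, 1 correlated over 0.1 (-0.039 to 0.123), and with the replicate block 1923 genes were higher and 5729 lower from GMP to preNeu, beside 1925 and 5781. The block changed no call of a member. The depth behind TPM and peaks is unknown, and 1 library per ChIP-seq condition allows no test.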
